A study of Mus musculus with 8 samples.

Results

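A set of 10 genes that respond to or restrain TGF-beta signalling were followed across 4 groups of ASZ001, a cell line from mouse basal cell carcinoma. They were taken by symbol from the deposited count table: Pmepa1, Thbs1, Tgfbi, Bhlhe40, Ski, Skil, Ltbp1, Ltbp3, Tgif1 and Bambi. All 10 were found among its 24907 symbols, and all 10 passed the filter on low counts that left 12538 genes for testing. The cells carried a non-silencing shRNA (NS) or an shRNA against Tgfbr1, which encodes the type I receptor for TGF-beta (knockdown). Each kind received DMSO, or Dox and 4OHT (doxycycline and 4-hydroxytamoxifen in common usage) in the cultures labelled RasV12, an activated Ras. That gave 4 groups of 2 libraries: NS with DMSO, knockdown with DMSO, NS RasV12 with Dox and 4OHT, and knockdown RasV12 with Dox and 4OHT. The drugs were never given without the RasV12 label, so drug and Ras effects cannot be told apart, and "induction" below stands for both together. The labels name 1 shRNA genotype against Tgfbr1. Loss of Tgfbr1 therefore cannot be told apart from other effects of that shRNA or from differences between the lines. Changes with "the knockdown" below stand for all of these together. The labels do not say whether the lines were clones, whether DMSO cells held the RasV12 construct, or whether replicate libraries were grown as different cultures. The p-values therefore measure the spread between these libraries, which may be technical.

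TGF-beta is secreted in a latent complex that latent TGF-beta binding proteins tether to the extracellular matrix. Once released it brings together its type II and type I receptors, which phosphorylate Smad2 and Smad3, and these enter the nucleus with Smad4 to change transcription. Several of the genes switched on by Smads encode brakes on the same route, among them membrane proteins that block the receptor and nuclear corepressors that silence Smad complexes. In normal keratinocytes the pathway restrains proliferation.

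Library totals lay between 12724604.5 and 16233379 counts. Tgfbr1 stood at 77.1 and 80.4 CPM (counts scaled to the library total and then between libraries by TMM factors) in NS cells with DMSO and at 104 and 91.6 CPM after induction. In knockdown cells it stood at 10.2 and 8.08 CPM with DMSO and at 8.86 and 9.42 CPM after induction, so the shRNA labels held in all 8 libraries. The ribosomal RNA gene Rn45s took 0.388% to 2.76% of counts, with its lowest and highest shares in single libraries of groups whose partner libraries held 1.36% and 0.916%. Of 7 keratinocyte and basal cell carcinoma markers, all were detected in every group. Their summed level ranged from 22600 to 22900 CPM in NS and 14000 to 14700 CPM in knockdown cells with DMSO, and from 10400 to 10700 and 9950 to 10500 CPM after induction, most of it from the keratins Krt5 and Krt14. Epcam, Trp63, Ptch1 and Cdh1 of the list did not follow that sum. The group means in the same order were 177, 314, 253 and 341 CPM for Epcam and 372, 446, 437 and 449 CPM for Trp63. They were 11.5, 15.8, 13.1 and 21.0 CPM for Ptch1, and 495, 552, 391 and 665 CPM for Cdh1. Gli1 fell in the order of the sum, from a mean of 2.5 CPM in NS cells with DMSO to 0.67 CPM in knockdown cells after induction. The 8 fibroblast markers summed to between 1.14 and 4.39 CPM over all libraries, with the collagen gene Col3a1 at 0 throughout. The 5 immune markers summed to 8.24 to 9.38 CPM in NS and 5.65 to 5.73 CPM in knockdown cells with DMSO. After induction they summed to 7.40 to 7.84 CPM in NS and 17.7 to 17.9 CPM in knockdown cells, mostly from Cd68, while Cd3e was at 0 in all libraries. The 4 endothelial markers summed to between 23.0 and 38.3 CPM, nearly all from Pecam1, with Cdh5 and Kdr under 0.1 CPM in every group. The part of these shifts in the results below was not tested.

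**Figure D1:**
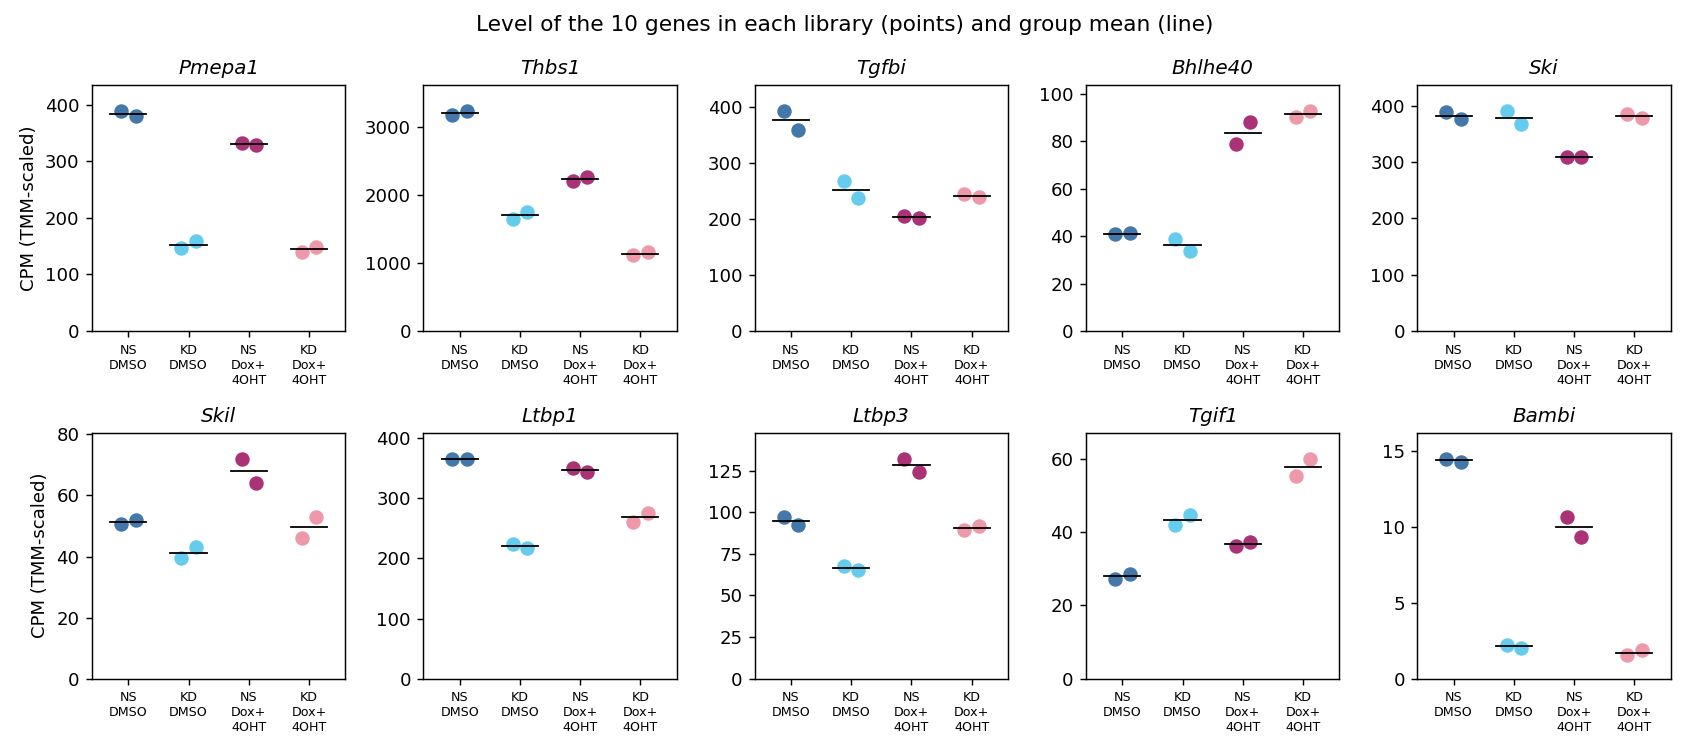
Level of each of the 10 genes (vertical axis, CPM, starting at 0) in the 8 libraries, with 1 panel per gene. Points are single libraries and the line is the mean of the 2 libraries of a group (KD, knockdown). Pmepa1, Thbs1, Ltbp1, Ltbp3 and Bambi are lower in all knockdown libraries than in all NS libraries, whereas Bhlhe40 separates by induction. For Ltbp3 the closest libraries are at 92.1 CPM (knockdown) and 92.4 CPM (NS).

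With DMSO, 8 of the 10 genes were lower and 1 was higher in knockdown than in NS cells. After induction 6 were lower and 3 higher. The share of all tested genes called in these comparisons was 61.9% with DMSO (30.9% higher, 31.0% lower) and 60.2% after induction (30.5% higher, 29.7% lower). A call is a Benjamini-Hochberg adjusted p of 0.05 in edgeR's quasi-likelihood test over all genes, which is also the source of every adjusted p and every log2 change ± SE that follows. The median log2 change of the 10 genes with the knockdown was -0.54 with DMSO and -0.42 after induction, against 0.00 and -0.01 over all tested genes. Both knockdown comparisons use separate libraries. In bulk RNA, fewer cells expressing a gene and less of its RNA per cell cannot be told apart.

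Pmepa1, whose membrane protein is induced by TGF-beta and holds receptor Smads away from the receptor, was at 389 and 381 CPM in NS and 147 and 158 CPM in knockdown cells with DMSO. After induction it was at 332 and 329 CPM in NS and 140 and 149 CPM in knockdown cells. All 4 knockdown libraries thus lay below all 4 NS libraries, and the knockdown libraries with and without induction overlapped each other. The knockdown lowered Pmepa1 2.52-fold with DMSO (log2 change -1.33 ± 0.04, adjusted p = 1.12e-20) and 2.29-fold after induction (-1.20 ± 0.04, adjusted p = 2.05e-19). Induction lowered it slightly in NS cells (-0.22 ± 0.04, adjusted p = 3.2e-05). In knockdown cells the change with induction was -0.08 ± 0.04 (adjusted p = 0.133), and leaving out knockdown DMSO replicate 1 made it pass (-0.14, adjusted p = 0.0286).

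Bambi encodes a transmembrane pseudoreceptor that resembles a type I receptor but has no kinase domain. It had 233 and 201.5 counts in NS and 29.5 and 29 counts in knockdown cells with DMSO, or 14.5 and 14.3 against 2.25 and 2.04 CPM. After induction it had 138 and 128 counts in NS and 23.5 and 24.5 in knockdown cells, or 10.7 and 9.38 against 1.53 and 1.92 CPM. It had the lowest CPM of the 10 genes, and each knockdown library was far below each NS library. With DMSO the knockdown lowered Bambi 6.66-fold (log2 change -2.73 ± 0.16, adjusted p = 4.98e-14), the largest knockdown change among the 10, and after induction 5.84-fold (-2.55 ± 0.19, adjusted p = 4.39e-12). Induction lowered it in NS cells (-0.53 ± 0.12, adjusted p = 0.000655), a call that DESeq2 did not make (adjusted p = 0.0553). In knockdown cells, where few counts were left, the change was -0.34 ± 0.27 (adjusted p = 0.359). A pseudogene copy, Bambi-ps1, is listed separately with 0 to 3 counts per library, and reads shared between the copies cannot be traced.

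Thbs1 encodes thrombospondin 1, a secreted glycoprotein that is both a TGF-beta target and an activator of the latent ligand. Its levels were 3169 and 3229 CPM in NS and 1651 and 1748 CPM in knockdown cells with DMSO, and 2210 and 2266 against 1111 and 1162 CPM after induction. The 4 groups did not overlap at any step of their order, which ran from NS with DMSO down through NS after induction and knockdown with DMSO to knockdown after induction. The knockdown lowered Thbs1 by log2 -0.91 ± 0.03 with DMSO (adjusted p = 3.4e-19) and -0.98 ± 0.03 after induction (adjusted p = 1.12e-19). Induction lowered it in both kinds of cells, by log2 -0.52 ± 0.03 in NS (adjusted p = 2.47e-13) and by log2 -0.58 ± 0.03 with the knockdown (adjusted p = 5.76e-14). It was the only one of the 10 that passed as lower in all 4 pairwise comparisons.

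Tgfbi, named for its induction by TGF-beta, encodes a matrix protein that binds collagens and integrins. It was at 393 and 360 CPM in NS and 268 and 238 CPM in knockdown cells with DMSO. After induction it was at 206 and 203 CPM in NS and 244 and 239 CPM in knockdown cells. NS cells with DMSO stood highest and NS cells after induction lowest, with both knockdown groups overlapping between them. The direction of the knockdown change therefore turned with induction, from -0.58 ± 0.05 with DMSO (adjusted p = 1.07e-07) to 0.24 ± 0.05 after it (adjusted p = 0.0011). Read the other way, induction lowered Tgfbi 1.84-fold in NS cells (-0.88 ± 0.05, adjusted p = 2.2e-09). The knockdown cells had a change of -0.07 ± 0.05 (adjusted p = 0.365) with induction, which passed without knockdown DMSO replicate 2 (-0.15, adjusted p = 0.0267).

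Bhlhe40 encodes a basic helix-loop-helix repressor that TGF-beta, hypoxia and growth factors can induce. It was at 40.9 and 41.4 CPM in NS and 38.8 and 33.6 CPM in knockdown cells with DMSO, and at 78.7 and 88.4 against 90.1 and 92.7 CPM after induction. Every induced library exceeded every library with DMSO, while the NS and knockdown groups lay close to each other. Induction raised it 2.03-fold in NS cells (log2 change 1.02 ± 0.07, adjusted p = 1.21e-12) and 2.53-fold in knockdown cells (1.34 ± 0.07, adjusted p = 2.28e-14). It was the only one of the 10 to move at least 2-fold with induction. With DMSO the knockdown change was -0.19 ± 0.07 (adjusted p = 0.0324). That call ended by DESeq2 (adjusted p = 0.121), without NS DMSO replicate 1 (0.107) or 2 (0.123), and without knockdown DMSO replicate 2, where the log2 change was -0.08 (adjusted p = 0.47). After induction the knockdown change was 0.13 ± 0.06 (adjusted p = 0.0621). It passed with RLE scaling (adjusted p = 0.0446), without the low-count filter (0.032), without knockdown DMSO replicate 1 (0.0419) or 2 (0.0443), and without NS Dox-4OHT replicate 2 (0.22, adjusted p = 0.00809).

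**Figure D2:**
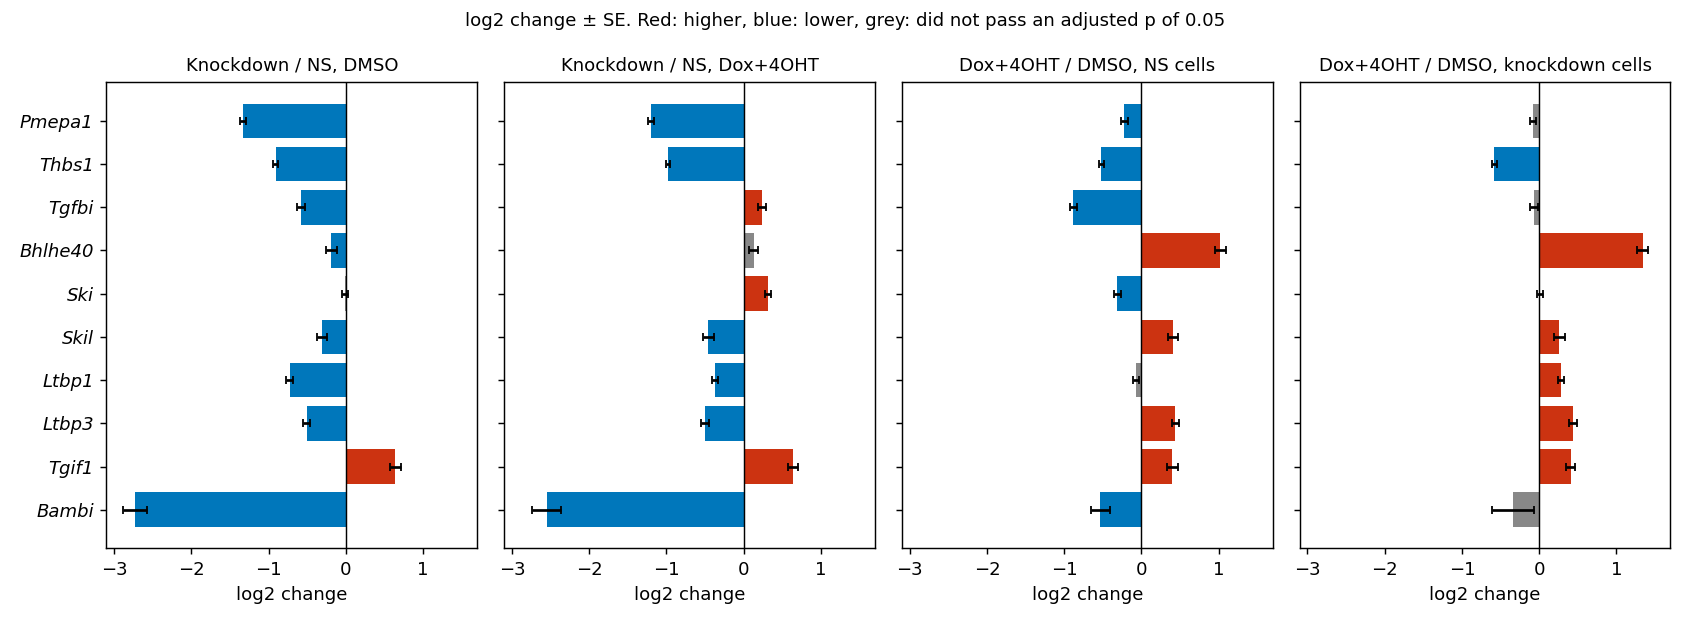
Log2 change of each gene (bars, ± SE of the fitted model) in 4 comparisons, with NS, DMSO or both as the reference named in each title. Bambi and Pmepa1 show the largest falls with the knockdown under both treatments, Tgif1 rises in all 4 comparisons, and Tgfbi changes sign between the 2 knockdown comparisons.

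The nuclear corepressors were divided. Ski and Skil encode related proteins that bind Smad complexes and recruit histone deacetylases, and Tgif1 encodes a homeodomain protein that competes with coactivators for Smad2. Per kilobase of the deposited gene length, Ski was the more abundant of the related pair in each library, 9.91 and 9.37 times Skil in NS and 12.8 and 11 times in knockdown cells with DMSO. After induction the ratio was 5.56 and 6.22 in NS and 10.8 and 9.25 in knockdown cells. The NS libraries after induction thus had the lowest ratios.

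Ski was at 389 and 376 CPM in NS and 391 and 367 CPM in knockdown cells with DMSO, and at 309 and 309 CPM in NS and 385 and 379 CPM in knockdown cells after induction. The other 3 groups overlapped, and the NS libraries after induction lay below them. The knockdown change was -0.01 ± 0.04 with DMSO (adjusted p = 0.75) and 0.31 ± 0.04 after induction (adjusted p = 2.9e-08). With induction Ski fell in NS cells (-0.31 ± 0.04, adjusted p = 6.48e-08), and its change in knockdown cells was 0.01 ± 0.04 (adjusted p = 0.81).

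Skil, itself a known TGF-beta target, was at 50.7 and 51.9 CPM in NS and 39.4 and 43.2 CPM in knockdown cells with DMSO. After induction it was at 71.9 and 64.2 CPM in NS and 46.2 and 53.0 CPM in knockdown cells. Induced NS libraries were the highest, and NS cells with DMSO overlapped with induced knockdown cells. The knockdown lowered Skil by log2 -0.31 ± 0.07 with DMSO (adjusted p = 0.000688) and -0.46 ± 0.07 after induction (adjusted p = 2.85e-06). Induction raised it in NS cells (0.41 ± 0.07, adjusted p = 2.72e-05). In knockdown cells the rise was 0.26 ± 0.07 (adjusted p = 0.00844), and it was lost when knockdown DMSO replicate 1 (0.18, adjusted p = 0.128) or knockdown Dox-4OHT replicate 2 (0.16, adjusted p = 0.169) was left out.

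Tgif1 was at 27.3 and 28.6 CPM in NS and 42.0 and 44.7 CPM in knockdown cells with DMSO, and at 36.2 and 37.4 against 55.4 and 59.9 CPM after induction. The groups did not overlap, and both knockdown groups stood above both NS groups. The knockdown raised Tgif1 by log2 0.64 ± 0.07 with DMSO (adjusted p = 1.09e-08) and 0.64 ± 0.06 after induction (adjusted p = 2.04e-09). With induction it rose by 0.40 ± 0.07 in NS (adjusted p = 6.08e-05) and by a like 0.41 ± 0.06 in knockdown cells (adjusted p = 8.85e-06). It was the only one of the 10 that passed as higher in all 4 pairwise comparisons. Genes outside the 10 did so too, among them Tsc22d1, Tle1 and Ppard, which are described below.

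RefSeq promoter windows were matched by symbol for 5 of the 10 genes (Ski, Tgfbi, Tgif1, Ltbp1 and Ltbp3), 10 windows in all on the mouse build GRCm38.p6, each from 250 bases before a transcription start to 50 after it. They were searched on both strands for the Smad-binding letters CAGACA and the AP-1 element TGACTCA. The Smad letters were in 4 of these 10 windows and in 21.0% of 32851 windows of all genes, and the AP-1 element in 1 of the 10 and in 5.20% of all. A match describes letters only, and which start these cells use is not known from gene counts. The 250 bases before 2 of the 5 listed Tgif1 starts are shown because, of the 10 genes, only Tgif1 rose throughout. Each stretch holds the Smad letters once, in capitals, read directly (CAGACA) or on the opposite strand (TGTCTG). The 2 Tgif1 stretches lie at chr17:70853533-70853782 and chr17:70851735-70851984, on the minus strand.
Tgif1 first start: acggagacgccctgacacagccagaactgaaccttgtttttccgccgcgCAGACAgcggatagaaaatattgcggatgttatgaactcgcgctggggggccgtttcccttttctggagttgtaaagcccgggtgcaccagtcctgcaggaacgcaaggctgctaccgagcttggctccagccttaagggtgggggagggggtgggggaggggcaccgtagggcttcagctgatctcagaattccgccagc
Tgif1 second start: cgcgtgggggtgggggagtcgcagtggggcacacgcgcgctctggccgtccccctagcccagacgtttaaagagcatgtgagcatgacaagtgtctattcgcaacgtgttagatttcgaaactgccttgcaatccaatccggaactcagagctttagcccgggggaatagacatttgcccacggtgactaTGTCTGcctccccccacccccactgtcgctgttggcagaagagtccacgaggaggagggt

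Ltbp1 and Ltbp3 encode latent TGF-beta binding proteins, which bind the propeptide of the ligand and anchor the complex in the matrix. They fell together with the knockdown, and stretches of their promoter windows are shown where they hold a match. The second of 2 listed Ltbp1 starts has the Smad letters 2 times, on the opposite strand, in the 250 bases before it (chr17:75178531-75178780, plus strand). At Ltbp3 the Smad letters and an AP-1 element, read on the opposite strand, share bases across the start itself, shown here in 60 bases that end 9 bases past the start (chr19:5740850-5740909, plus strand, matches in capitals).
Ltbp1 second start: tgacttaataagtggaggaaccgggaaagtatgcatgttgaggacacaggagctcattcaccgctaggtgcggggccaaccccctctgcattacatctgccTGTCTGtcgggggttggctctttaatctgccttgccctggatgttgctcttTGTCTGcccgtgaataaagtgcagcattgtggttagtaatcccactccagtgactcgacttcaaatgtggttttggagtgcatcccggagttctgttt
Ltbp3 start: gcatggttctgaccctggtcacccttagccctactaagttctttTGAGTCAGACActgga

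Ltbp1 was at 365 and 365 CPM in NS and 224 and 218 CPM in knockdown cells with DMSO, and at 350 and 344 against 261 and 276 CPM after induction. No 2 groups overlapped, and all NS libraries were above all knockdown libraries. The knockdown lowered it by log2 -0.73 ± 0.04 with DMSO (adjusted p = 7.83e-16) and -0.37 ± 0.04 after induction (adjusted p = 8.24e-10). Induction moved Ltbp1 by -0.07 ± 0.04 in NS cells, which did not pass (adjusted p = 0.0909), and raised it by 0.28 ± 0.04 in knockdown cells (adjusted p = 7.1e-07).

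Ltbp3 was at 97.0 and 92.4 CPM in NS and 67.9 and 65.6 CPM in knockdown cells with DMSO, and at 132 and 124 against 89.1 and 92.1 CPM after induction. Induced NS cells were the highest and knockdown cells with DMSO the lowest, and the 2 groups between them did not overlap although their closest libraries differed little. The knockdown lowered it by log2 -0.51 ± 0.05 with DMSO (adjusted p = 1.97e-09) and -0.50 ± 0.05 after induction (adjusted p = 6.33e-10). The rise with induction was 0.44 ± 0.05 in either kind of cell (adjusted p = 1.74e-08 for NS, 1.27e-07 for knockdown). Per kilobase, Ltbp1 exceeded Ltbp3 in every library, by 2.62 and 2.75 times in NS and 2.29 and 2.31 times in knockdown cells with DMSO. After induction the ratios were lower, at 1.84 and 1.92 in NS and 2.03 and 2.09 in knockdown cells.

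With induction 4 of the 10 genes rose and 5 fell in NS cells, where 42.1% of all tested genes were called (20.8% higher, 21.3% lower). In knockdown cells 5 rose and 1 fell, against 36.1% of all genes (19.5% higher, 16.6% lower). The median log2 change of the 10 was -0.15 in NS and 0.14 in knockdown cells, while over all genes it was 0.00 in both. Bhlhe40, Skil, Ltbp3 and Tgif1 passed as higher and Thbs1 as lower in both kinds of cells.

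Whether the response to induction differed between knockdown and NS cells was tested by the interaction term, which equally tests whether the knockdown change differed between treatments. It passed for 4 of the 10 genes, all with the response shifted upward in knockdown cells, against 38.2% of all tested genes (20.2% upward, 18.0% downward). The difference was 0.82 ± 0.07 for Tgfbi (adjusted p = 5.2e-07), 0.35 ± 0.05 for Ltbp1 (adjusted p = 2.99e-06), 0.32 ± 0.05 for Ski (adjusted p = 1.11e-05) and 0.31 ± 0.09 for Bhlhe40 (adjusted p = 0.0102). The call for Bhlhe40 ended by DESeq2 (adjusted p = 0.0646), without knockdown DMSO replicate 2 (0.128) and without NS Dox-4OHT replicate 1 (0.0686). For Pmepa1 the difference was 0.14 ± 0.06 (adjusted p = 0.06). It passed with RLE scaling (adjusted p = 0.0471), without knockdown DMSO replicate 2 (0.0231) and without knockdown Dox-4OHT replicate 1 (0.031). The estimates were 0.19 ± 0.30 for Bambi, 0.01 ± 0.10 for Tgif1, 0.00 ± 0.07 for Ltbp3, -0.07 ± 0.04 for Thbs1 and -0.15 ± 0.10 for Skil, with adjusted p from 0.258 to 0.968. That for Thbs1 passed without knockdown DMSO replicate 1 (-0.12, adjusted p = 0.0478).

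**Figure D3:**
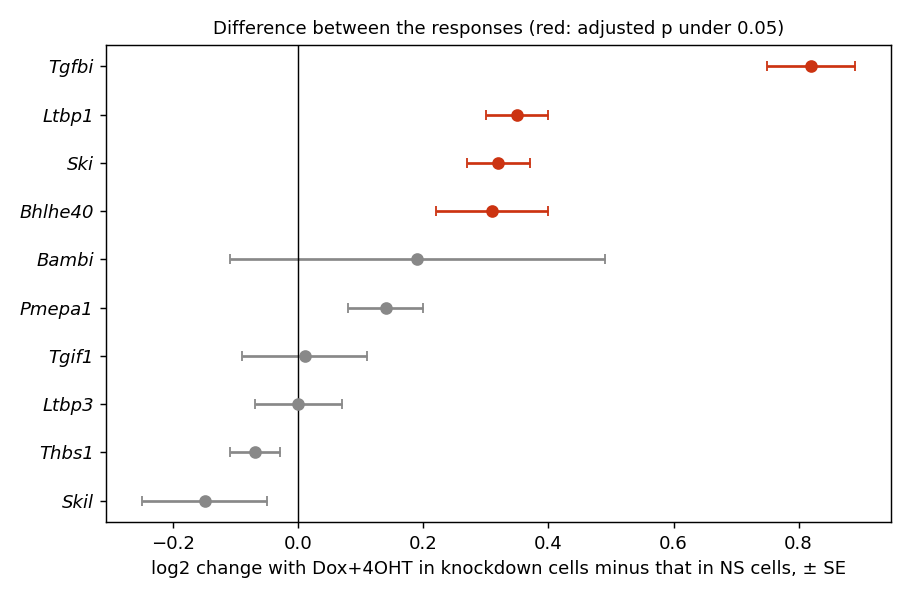
Log2 change with induction in knockdown cells minus that in NS cells (horizontal axis, ± SE) for the 10 genes, ordered by size. Red points passed an adjusted p of 0.05, and they run from 0.31 for Bhlhe40 to 0.82 for Tgfbi.

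Per kilobase of deposited length, the 10 genes covered a wide range of levels. In NS cells with DMSO, Thbs1 had 550 CPM per kilobase, above 99.7% of tested genes, followed by Tgfbi at 140, Pmepa1 at 85.0, Ski at 70.1 and Ltbp1 at 49.2. Ltbp3, Tgif1 and Bhlhe40 lay at 18.3, 17.1 and 13.2, Skil at 7.27 and Bambi at 2.86 CPM per kilobase. In knockdown cells after induction Thbs1 was still first, at 195, and Bambi last, at 0.342 CPM per kilobase. Pmepa1 stood at 31.9 CPM per kilobase there, below Ski (70.0), Ltbp1 (36.2) and Tgif1 (35.4), all of which it exceeded in NS cells with DMSO.

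**Figure D4:**
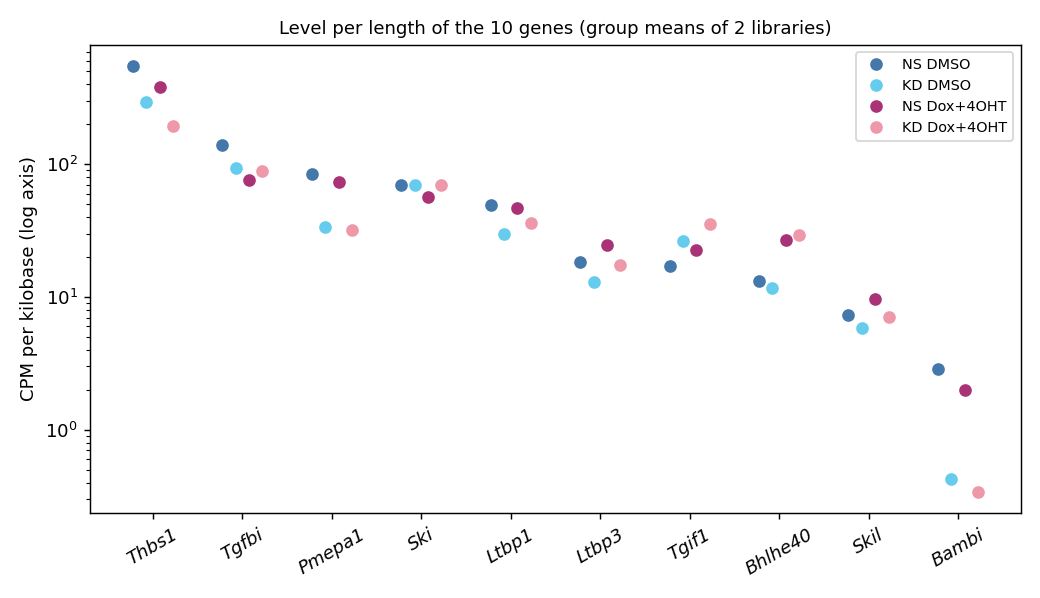
Group means of level per length (vertical axis, CPM per kilobase of deposited length, log scale) for the 10 genes, ordered by their level in NS cells with DMSO. Thbs1 is highest and Bambi lowest in each of the 4 groups (KD, knockdown).

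Of 39 other genes of the TGF-beta pathway, 37 were tested (all but Lrrc32 and Acvrl1). The 37 include Tgfbr1, the target of the shRNA, which is counted among the lower genes in both knockdown comparisons. With the knockdown 16 of the 37 were higher and 12 lower with DMSO, and 21 higher and 9 lower after induction, with median log2 changes of 0.01 and 0.25, where 61.9% and 60.2% of all tested genes were called in either direction. With induction 10 were higher and 10 lower in NS cells, and 20 higher and 2 lower in knockdown cells, with medians of 0.02 and 0.17, against 42.1% and 36.1% of all genes called. The interaction was called upward for 15 and downward for 5, against 38.2% of all genes.

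Among the 3 ligand genes, Tgfb2 was lower in knockdown cells, with log2 changes of -1.29 ± 0.07 with DMSO (adjusted p = 4.23e-14) and -0.63 ± 0.07 after induction (adjusted p = 2.56e-08). Its levels were 87.0 and 77.2 CPM in NS and 32.9 and 34.3 CPM in knockdown cells with DMSO. Tgfb1 was called higher with the knockdown under both treatments, and Tgfb3 in neither. Tgfb3 rose with induction in NS cells (0.60 ± 0.12, adjusted p = 0.000147). Among genes of latency and activation, Itgb6 and Itgb8, integrin chains whose heterodimers release active TGF-beta, were called in opposite directions with the knockdown, whereas both fell with induction in NS cells. Itgb6 was higher in knockdown cells after induction (0.98 ± 0.09, adjusted p = 6.05e-10) and fell with induction in NS cells (-0.60 ± 0.09, adjusted p = 7.08e-06). Itgb8 was lower in knockdown cells after induction (-0.78 ± 0.09, adjusted p = 4.73e-08) and fell with induction in NS (-0.39 ± 0.08, adjusted p = 0.00024) as well as knockdown cells (-0.83 ± 0.09, adjusted p = 5.8e-08).

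Of the receptor genes, Tgfbr1, the target of the shRNA, was lower in knockdown cells (-3.11 ± 0.09 with DMSO, -3.43 ± 0.09 after induction). Its partner Tgfbr2, the type II receptor gene, was higher in them by 0.52 ± 0.04 with DMSO (adjusted p = 1.76e-11) and 0.92 ± 0.04 after induction (adjusted p = 1.67e-16). It was at 105 and 105 CPM in NS and 149 and 151 CPM in knockdown cells with DMSO, with no overlap. Another list held the Smads Smad2, Smad3, Smad4 and Smad7, the ligases Smurf1 and Smurf2, and Zfyve9, which is neither. Of these 7 genes, 2 were higher and 1 lower with the knockdown under DMSO. After induction 5 were higher, Zfyve9 among them, and none lower. Over all genes, 61.9% and 60.2% were called in these comparisons.

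Of 17 other target genes, 8 were higher and 6 lower with the knockdown under DMSO, and 10 higher and 5 lower after induction, beside the same 61.9% and 60.2% of all genes. Cdkn1a, the cell cycle inhibitor p21, was at 51.7 and 49.3 CPM in NS and 42.2 and 36.9 CPM in knockdown cells with DMSO, and at 30.3 and 31.9 against 69.9 and 67.5 CPM after induction. It fell with induction in NS cells (-0.70 ± 0.07, adjusted p = 4.47e-09) and rose in knockdown cells (0.80 ± 0.06, adjusted p = 1.26e-10). After induction it was higher in knockdown than in NS cells by 1.15 ± 0.07 (adjusted p = 4.16e-14). Tsc22d1, a TGF-beta-stimulated transcription regulator gene, rose with induction in both kinds of cells (0.53 ± 0.05 and 0.74 ± 0.05). Ctgf, a matricellular protein gene, fell with induction in knockdown cells (-0.25 ± 0.05, adjusted p = 0.000643). Cyr61, a relative of Ctgf, was higher with the knockdown under DMSO (0.52 ± 0.11, adjusted p = 0.0134), a call that ended without NS DMSO replicate 1 (0.085) or 2 (0.0575).

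For the 5 genes whose group means spanned at least 1 on the log2 scale, the genes with the most similar pattern were sought among 9932 others. Likeness was the root mean square difference of log2 CPM over the 8 libraries, each gene centred on its mean. The libraries share group, depth and scaling, so these are descriptions. Nearest to Pmepa1 were Ccsap (difference 0.038) and Cisd2 (0.065), and nearest to Thbs1 were Pitpnm3 (0.10) and Fam120c (0.108). Nearest to Bhlhe40 were Dusp1 (0.124), a MAP kinase phosphatase gene, and Neurl1b (0.154). Tle1 (0.049) and Ppard (0.051) were nearest to Tgif1, and Slc4a8 (0.159) and Mapre2 (0.181) to Bambi. Slc4a8, for example, was at 22.6 and 24.2 CPM in NS and 3.82 and 4.53 CPM in knockdown cells with DMSO, and Ccsap at 17.8 and 17.2 against 6.61 and 7.24 CPM.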

How the data were processed

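Messenger RNA libraries (TruSeq, from RNeasy extracts, per the labels) of 8 ASZ001 samples were compared. The values are estimated counts, deposited by the authors without normalization in 1 table with each gene's length. Per the submitters' processing notes, reads were handled with TopHat, HOMER and DESeq2 on mm9, and the series' design text places the analysis at transcript isoform level. The sources used here do not give versions, strand setting or treatment of reads shared between genes, so overlapping genes may share reads. All values were multiples of 0.5 and were rounded to integers before testing. Where a symbol was repeated, the entry with more counts was kept (2 dropped). CPM used the deposited values.

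Genes were filtered with filterByExpr (12538 kept) and tested in edgeR 4.0.16 (R 4.3.3), with TMM factors, 4 group means over all 8 libraries (4 residual degrees of freedom), robust quasi-likelihood F tests, two-sided, and Benjamini-Hochberg adjustment over all genes. There were 5 contrasts. The fit was tested on simulated data first. Alternatives were DESeq2 1.42.0, RLE factors, no filter, only the libraries compared, a replicate block, no Rn45s, and each library left out. SDs were not printed, since with 2 libraries both values are given. Totals from 12724604.5 to 16233379 counts limit precision most for Bambi. Replicate pairs differed by more than sampling noise (chi-square per degree of freedom 2.35 to 13.3).

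The 10 genes, the lists and the naming rules were chosen with earlier results of these data known. All 10 are named. Of other pathway genes, the rule took in each comparison the 2 largest rises and 2 largest falls past the test with at least 5 CPM. Genes of like pattern were those with the 2 smallest differences. Another 3 genes (Col4a1, Col4a2 and Smad7) were named after their values were seen. Some genes of these lists are counted but not reported here by name. Promoter windows come from RefSeq, GRCm38.p6, matched by symbol, and no coordinates of mm9 are given.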

Additional observations from a re-analysis of the deposited data

Results flagged for a closer look

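The response to induction differed between knockdown and NS cells (interaction term, edgeR, adjusted over all genes) for 15 of the genes named. Such calls were common, since 38.2% of all tested genes were called for this term. Among the 10 target and feedback genes these were Tgfbi (log2 difference 0.82), Ltbp1 (0.35), Ski (0.32) and Bhlhe40 (0.31), with adjusted p of 5.2e-07, 2.99e-06, 1.11e-05 and 0.0102. For Tgfbi the difference came with a fall in NS cells and overlapping libraries in knockdown cells.

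Among other pathway genes the response in knockdown cells was shifted upward for Cdkn1a (1.51, adjusted p = 2.07e-12), Tgfb2 (0.66, adjusted p = 1.13e-05) and Itgb6 (0.47, adjusted p = 0.00257). Cdkn1a moved in opposite directions in the 2 kinds of cells, down in NS and up in knockdown cells. For Itgb6 the difference was 0.31 without NS Dox-4OHT replicate 2 (adjusted p = 0.0486). Smaller upward shifts were found for Tgfbr2 (0.40, adjusted p = 4.87e-06), Tsc22d1 (0.22, adjusted p = 0.0131), Col4a1 (0.15, adjusted p = 0.0112) and Col4a2 (0.15, adjusted p = 0.00584). Neurl1b, which is in no pathway list and was named for its likeness to Bhlhe40, had an upward shift too (0.20, adjusted p = 0.0182). Downward shifts among pathway genes were found for the fibronectin gene Fn1 (-0.67, adjusted p = 0.0288), Itgb8 (-0.44, adjusted p = 0.00596) and Ctgf (-0.39, adjusted p = 0.00026). That of Fn1 no longer passed with the replicate block (adjusted p = 0.0615) or without knockdown DMSO replicate 1 (0.0576) or 2 (0.097), NS DMSO replicate 1 (0.0884) or 2 (0.102), or NS Dox-4OHT replicate 1 (0.0904) or 2 (0.0586). DESeq2 did not call the differences of Tsc22d1 (adjusted p = 0.1), Itgb8 (0.0905), Neurl1b (0.135) or Col4a1 (0.0531). Leaving out single DMSO libraries also ended those of Tsc22d1 (NS replicate 2, 0.0695; knockdown replicate 2, 0.113), Neurl1b (NS replicate 1, 0.0857; knockdown replicate 1, 0.055) and Col4a1 (NS replicate 2, 0.0851). Without knockdown Dox-4OHT replicate 2 the adjusted p was 0.0668 for Col4a1 and 0.0612 for Col4a2.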

How the results depend on the processing

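Over the alternatives, 690 values of the 10 genes were recomputed. Of these, 669 kept their direction where either fit called them and their side of the threshold, 10 no longer passed, 11 newly passed, and none that was called changed sign. DESeq2 called fewer genes overall with induction in NS (3265) and knockdown cells (2628) and for the interaction (2828), against 5281, 4531 and 4791 by edgeR. In these comparisons it called 8, 6 and 3 of the 10 genes against 9, 6 and 4. It also called fewer genes for the knockdown with DMSO (5922 against 7763) and after induction (5834 against 7542). There it called 8 and 9 of the 10 genes against 9 and 9. The cause of these differences was not tested. When single libraries were left out, with the lone partner assumed to vary like the other groups, between 3 and 5 of the 10 passed the interaction and between 5 and 7 the induction in knockdown cells. The replicate numbers did not pair the libraries (correlations of deviations from -0.023 to 0.033). With a replicate block the genes called numbered 5319 and 4559 for induction in NS and knockdown cells, 7777 and 7554 for the knockdown with DMSO and after induction, and 4814 for the interaction, and the numbers called among the 10 were as without it. A fit of only the libraries compared was not run for the interaction, which needs all 8. Depth limits Bambi most, with 23.5 to 29.5 counts in each knockdown library.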

Other observations

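Col4a1 and Col4a2 encode the chains of the main basement membrane collagen and lie beside each other in the genome, sharing a promoter region. They moved in opposite directions with the knockdown. Col4a1 was at 674 and 690 CPM in NS and 374 and 372 CPM in knockdown cells with DMSO, while Col4a2 was at 771 and 777 against 937 and 943 CPM. After induction Col4a1 was at 678 and 680 CPM in NS and 407 and 416 CPM in knockdown cells, and Col4a2 at 750 and 741 against 987 and 1024 CPM. The log2 changes with DMSO were -0.87 ± 0.03 (adjusted p = 1.02e-18) and 0.28 ± 0.03 (adjusted p = 5.46e-09), and after induction -0.72 ± 0.03 and 0.43 ± 0.03 (adjusted p = 7.04e-17 and 1.22e-12). No NS library overlapped with a knockdown library of the same treatment for either gene. Both were picked after their values were seen.

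Smad7, the inhibitory Smad gene, was also picked afterwards. It was at 19.7 and 17.8 CPM in NS and 17.1 and 16.6 CPM in knockdown cells with DMSO (log2 change -0.16 ± 0.10, adjusted p = 0.145), and its change with the knockdown after induction was 0.05 ± 0.09 (adjusted p = 0.649). Its change with induction was 0.16 ± 0.09 in NS cells (adjusted p = 0.18). In knockdown cells it rose by 0.37 ± 0.09 (adjusted p = 0.00285), a call that ended without knockdown Dox-4OHT replicate 1 (0.30, adjusted p = 0.0566).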
